A study of Mus musculus with 24 samples.

Results

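The effect of any active treatment was measured in mouse brain tumours taken at day 0, the moment the treatment pumps were removed. Of the 24 tumours in the series, the 12 of day 0 were used: 9 from 3 actively treated groups and 3 from the Vehicle group, assigned by the treatment each label gives. The question was which transcripts all 3 treatments move in the same direction, so the quantity reported is the mean of the 3 treated groups, weighted equally, over Vehicle. All tumours grew from CT-vIII cells, the mouse glioma line CT-2A carrying the mouse EGFR variant III and firefly luciferase, implanted in the right hemisphere. From day 6 to day 9 after implantation an osmotic pump infused the brain for 72 h at 0.5 µl/h. The αCD40 group (written aCD40, n = 3) received an agonist antibody clone against CD40, a receptor that activates antigen-presenting cells, and the D2C7-IT group (n = 3) received 0.2 µg of an immunotoxin against EGFR and its variant. The D2C7-IT+aCD40 group (n = 3) received both, and the Vehicle group (n = 3) received 100 µg of rat IgG2a antibody and 2% mouse serum albumin, dissolved in saline. The aCD40 amount is given as 10 to 300 µg, without the amount in each tumour. The labels give the albumin and the rat IgG2a for the control groups only, so an effect of these components on the Vehicle tumours and an effect of the treatments cannot be told apart. The model is 1 cell line, and the labels give no age or sex of the mice.

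Blood vessels of the brain are lined by endothelial cells joined by tight junctions, the cellular basis of the blood-brain barrier, and are wrapped by pericytes or, on larger vessels, by smooth muscle. Endothelial cells store von Willebrand factor and P-selectin, and when activated by cytokines they display adhesion molecules that capture leukocytes from the blood. Because whole tissue was sequenced, fewer cells of a type and less RNA per cell cannot be told apart in any value given here.

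The 12 libraries of polyadenylated RNA held 24697576 to 47825911 counted reads, and the library with the fewest was Vehicle replicate 3. Every library was rich in neuron transcripts: the 14 neuron markers summed to 6638 to 12704 counts per 1000000 counted reads (CPM) in the treated libraries, against 8509 to 12791 CPM in Vehicle. Egfr, which counts the transgene and the mouse gene together, ran from 14.6 to 47 CPM in the treated libraries, with a median of 23.2 CPM, against 49.6, 16 and 17 CPM in Vehicle replicates 1, 2 and 3. Vehicle replicate 1 also stood above the other 2 Vehicle libraries for the proliferation factor Foxm1, at 17.4 CPM against 4.26 and 1.58 CPM. The labels call the tissue brain tumour, and its neuron markers were abundant in all 12 libraries.

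The genes that passed the test are expressed by endothelial cells. Of 20735 genes tested, 3 rose in the treated tumours and 0 fell at an adjusted p under 0.05 (0.0145% of genes, edgeR quasi-likelihood test with Benjamini-Hochberg adjustment): Ly6a, the gene of the surface antigen Sca-1, Lrg1, a secreted glycoprotein made by activated venules, and Vwf, von Willebrand factor. At an unadjusted p under 0.05 there were 1280 genes (6.17%), 696 of them higher and 584 lower (2.82%). DESeq2 called 124 of the 20491 genes to which it gave an adjusted p, 97 higher (0.473%) and 27 lower (0.132%), and limma voom called 2. In 203 genes (0.979%) all 9 treated libraries lay above all 3 Vehicle libraries, and in 64 genes (0.309%) all 9 lay below. No other gene passed the edgeR threshold, so the values of every other gene below are given without a call.

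**Figure D1:**
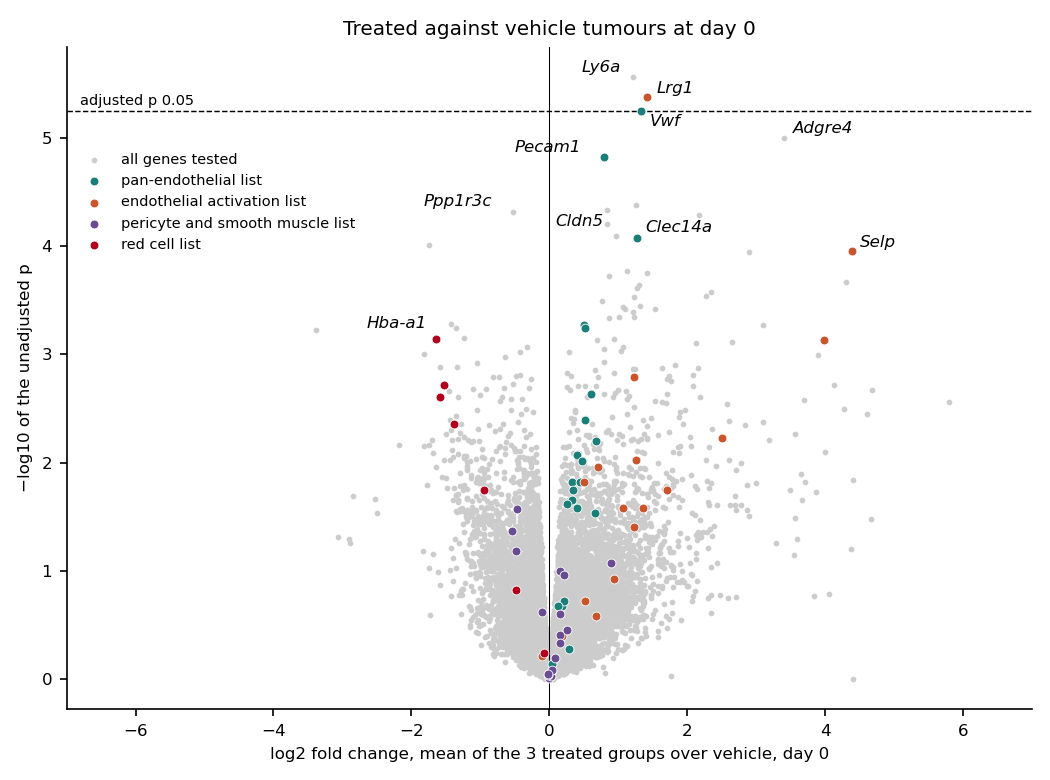
Each of the 20735 genes tested is a point; the x axis is the log2 fold change of the 3 treated groups over Vehicle and the y axis is −log10 of the unadjusted p, with 4 gene lists coloured. The dashed line marks the adjusted p of 0.05, which Ly6a, Lrg1 and Vwf reached, and the pan-endothelial genes lie to the right of 0 while the red cell genes lie to the left.

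Vwf (chromosome 6, 125546774 to 125686679, GRCm38, plus strand) is stored by endothelial cells and tethers platelets at sites of injury. It measured 105, 121 and 104 CPM in the aCD40 tumours, 132, 116 and 130 CPM in the D2C7-IT tumours, 65.7, 113 and 87.6 CPM in the D2C7-IT+aCD40 tumours, and 47.3, 45.2 and 31.1 CPM in Vehicle. The groups did not overlap, and combination replicate 1 was the treated library nearest to Vehicle. The log2 fold change was 1.33 ± 0.16 (SE), or 2.51-fold, with an edgeR adjusted p of 0.039.

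Ly6a (chromosome 15, 74994877 to 74998031, minus strand) marks brain endothelium in the mouse and is also an interferon-inducible antigen of lymphocytes. Ly6a falls outside the rule by which genes were named and is given because it passed the test. It measured 82.2, 96.1 and 102 CPM in the aCD40 tumours, 72.6, 63.4 and 62.4 CPM in the D2C7-IT tumours, 62.9, 81.1 and 96.6 CPM in the D2C7-IT+aCD40 tumours, and 34.5, 39.6 and 24.1 CPM in Vehicle. The lowest treated library, D2C7-IT replicate 3, stood above the highest Vehicle library, replicate 2. The log2 fold change was 1.22 ± 0.13 (2.33-fold, edgeR adjusted p = 0.039). Ly6a belongs to a family of similar genes on chromosome 15, so reads could be split between copies. Its relative Ly6c1, an antigen of mouse brain endothelium chosen after its values were seen, ran from 46.7 to 90.9 CPM in the treated libraries, with a median of 65.5 CPM, against 33.5, 43.2 and 34.8 CPM in Vehicle (log2 0.76 ± 0.14, edgeR adjusted p = 0.26).

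Lrg1 (chromosome 17, 56119678 to 56122001, minus strand) modulates TGF-beta signalling in endothelial cells and is also an acute-phase protein. It measured 8.35, 8.52 and 6.53 CPM in the aCD40 tumours, 22.4, 18.4 and 15.3 CPM in the D2C7-IT tumours, 8.2, 9.33 and 7.35 CPM in the D2C7-IT+aCD40 tumours, and 4.09, 3.77 and 3.64 CPM in Vehicle. All 9 treated libraries lay above Vehicle, and the 3 D2C7-IT libraries lay above the other 6. The log2 fold change was 1.42 ± 0.16 (2.68-fold, edgeR adjusted p = 0.039). The 3 calls lay near the threshold and were lost when most of the single libraries were left out. The count of called genes was 0 without any single Vehicle library, any single D2C7-IT library or aCD40 replicate 1 or 2. It was 5 without combination replicate 2. Over those 12 fits that leave out 1 library, the log2 fold changes ran from 1.19 to 1.43 for Vwf, from 1.07 to 1.36 for Ly6a and from 1.38 to 1.47 for Lrg1.

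**Figure D2:**
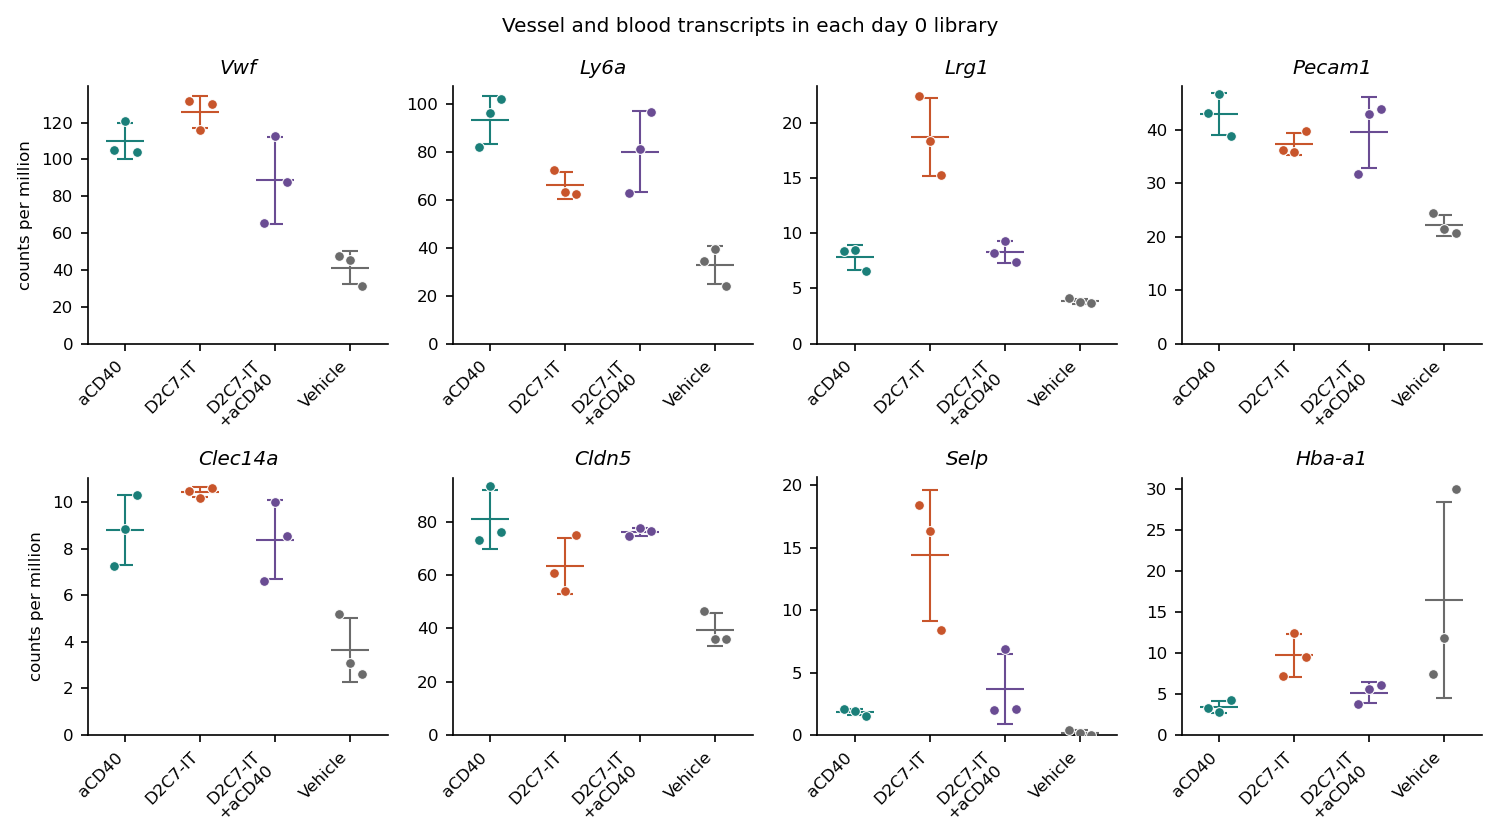
CPM of 8 genes in each day 0 library (points), with the mean and SD of each group of 3 (bars). For every gene shown but Hba-a1 the 9 treated libraries lie above the 3 Vehicle libraries, and for Hba-a1 Vehicle replicate 3 is the highest library at 30 CPM.

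The sequence before the start of these genes was examined for 6 short patterns, on either strand. RefSeq promoter windows of GRCm38.p6, cut to the 250 bases before the RefSeq start, were at hand for 13708 of the tested genes. They were at hand for 50 of the 74 higher genes among the 100 of smallest p, and for Lrg1 among the called genes. Those of Lrg1 (chr17:56121947-56122196, minus strand), of the ceramidase gene Acer2 (chr4:86874164-86874413, plus strand) and of the adhesion molecule Icam1 (chr9:21015690-21015939, plus strand) are shown because Lrg1 passed the test, Acer2 stood above Vehicle in all 9 treated libraries and Icam1 stood highest in D2C7-IT tumours. Capitals mark the matches.
Lrg1: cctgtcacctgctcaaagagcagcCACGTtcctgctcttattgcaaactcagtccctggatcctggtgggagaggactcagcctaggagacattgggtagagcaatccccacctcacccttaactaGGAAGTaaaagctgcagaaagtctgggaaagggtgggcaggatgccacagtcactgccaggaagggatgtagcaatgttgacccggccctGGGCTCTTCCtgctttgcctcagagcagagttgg
Acer2: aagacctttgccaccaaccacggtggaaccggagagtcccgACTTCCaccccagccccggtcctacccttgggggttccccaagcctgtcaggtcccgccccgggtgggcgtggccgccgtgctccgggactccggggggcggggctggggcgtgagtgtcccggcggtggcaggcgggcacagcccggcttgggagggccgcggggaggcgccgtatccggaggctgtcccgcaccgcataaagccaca
Icam1: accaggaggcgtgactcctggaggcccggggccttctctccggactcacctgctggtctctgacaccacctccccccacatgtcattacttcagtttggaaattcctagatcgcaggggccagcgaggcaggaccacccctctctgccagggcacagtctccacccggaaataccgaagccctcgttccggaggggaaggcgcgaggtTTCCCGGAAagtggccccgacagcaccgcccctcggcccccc
In Lrg1 the capitals are, from the left, ACGTG read on the other strand (hypoxia-type), GGAAGT (ETS-type, the family of endothelial transcription factors such as ERG) and GGG and TTCC with any 3 bases between (NF-kB-type). In Acer2 they are GGAAGT read on the other strand, and in Icam1 they are TTCCNGGAA (STAT-type). By the span of Lrg1 given above, that gene starts further upstream than the RefSeq start, so the end of its window lies inside the span. That end holds the NF-kB-type match.
GGAAGT was present in 17 of the 50 windows of the higher genes (34%) and in 21.9% of the windows of all tested genes. The NF-kB-type pattern was present in 4 of the 50 (8%) and in 5% of all, TTCCNGGAA in 2 of the 50 (4%) and in 0.948% of all, and ACGTG in 9 of the 50 (18%) and in 20.2% of all. TGCACNC or TGCGCNC, of the metal response type, was present in 9 of the 50 (18%) and in 28.7% of all, and the glucocorticoid receptor type (AG, any base, ACA, any 3 bases, TGT, any base, CT) in 0 of the 50 and in 0.0292% of all. These are shares of letters in a window and were not tested. Of the other windows looked at, those of Selp and Cldn5 held only the metal response type, and those of Clec14a and Igfbp7 only ACGTG. Ctla2a, above Vehicle in all 9 treated libraries, and Sele, with its largest fold change in D2C7-IT, held none of the 6 patterns. The windows shown above all hold a match and do not stand for vessel genes in general.

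The genes that define endothelial cells of any vessel lay above Vehicle together. Their list was chosen with earlier results of these data known. Genes of a shared cell type can move together, so the members are not separate supports. All 22 members of the pan-endothelial list had a log2 fold change above 0, with a median of 0.42, against a median of -0.01 over all genes tested. Of the 22, 17 had an unadjusted p under 0.05, all of them higher, while 3.36% of all genes did so, and 10 showed no overlap between the 9 treated and 3 Vehicle libraries, while 0.979% of all genes did so. Their summed level was 537 to 746 CPM in the treated libraries, with a median of 667 CPM, against 410 to 521 CPM in Vehicle, so the sums did not overlap. Vwf was the called member under edgeR, and DESeq2 called 6 of the 22 higher and 0 lower, where it called 0.473% of all genes higher. The count of members with an unadjusted p under 0.05 was 10 without Vehicle replicate 2 and 12 without Vehicle replicate 3, and the list's median stayed between 0.37 and 0.51 over the 12 fits that leave out 1 library.

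Among these members, Pecam1, the adhesion protein CD31 at endothelial junctions, measured 43.2, 46.7 and 38.8 CPM in the aCD40 tumours, 36.3, 35.9 and 39.7 CPM in the D2C7-IT tumours, 31.8, 42.9 and 43.8 CPM in the D2C7-IT+aCD40 tumours, and 24.4, 21.4 and 20.6 CPM in Vehicle. No library of one side entered the range of the other. Its log2 fold change of 0.79 ± 0.10 (1.73-fold) had an edgeR adjusted p of 0.063. Clec14a, a lectin-like receptor of endothelium, ran from 6.61 to 10.6 CPM in the treated libraries, with a median of 10 CPM, against 5.2, 3.1 and 2.63 CPM in Vehicle. Its log2 fold change was 1.27 ± 0.21 (edgeR adjusted p = 0.14), of the size of Vwf. Cdh5, the junctional cadherin of endothelium, ran from 20.3 to 28.5 CPM with a median of 26.4 CPM, against 19.3, 17 and 15.8 CPM in Vehicle.

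Cdh5 was close to even across the treatments, at log2 fold changes of 0.50 in aCD40, 0.53 in D2C7-IT and 0.48 in D2C7-IT+aCD40. Podxl, a sialomucin of the luminal surface that was chosen after its values were seen, was likewise even at 0.66, 0.71 and 0.69. Other members without overlap were Esam (log2 0.52), Mmrn2 (0.67), Tek (0.44), Erg (0.40), Nos3 (0.40) and Egfl7 (0.26), which encode a junction protein, a matrix protein, the angiopoietin receptor, a transcription factor, endothelial nitric oxide synthase and a secreted vessel factor. At the lower end stood Flt1, a VEGF receptor, at 0.04 ± 0.10, Rasip1 at 0.12 ± 0.09 and Sox17 at 0.19 ± 0.14. Vwf, at 2.51-fold, stood at the other end of the list.

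Of the next genes, Cd93, Tgm2, Myct1, Calcrl, Cyyr1 and Pglyrp1 were named after their values were seen. Cd93, a receptor of endothelium and myeloid cells, ran from 23.3 to 39.1 CPM in the treated libraries, with a median of 32.5 CPM, against 20.7, 11.7 and 11.1 CPM in Vehicle (log2 1.07 ± 0.21, edgeR adjusted p = 0.27). Tgm2, a transglutaminase abundant in endothelium, ran from 35.1 to 65.9 CPM with a median of 58.1 CPM, against 27.4, 32.7 and 21.7 CPM in Vehicle (log2 0.97 ± 0.16, edgeR adjusted p = 0.14). Myct1, Calcrl, Cyyr1 and Pglyrp1 had no overlap either, at log2 fold changes of 1.23, 0.66, 0.80 and 0.79. Igfbp7, a vessel matrix protein that the naming rule did select, was also without overlap, at 42.4 to 81 CPM, with a median of 57.2 CPM, in treated libraries, against 33.7, 17.9 and 13.3 CPM in Vehicle (log2 1.32 ± 0.25, edgeR adjusted p = 0.27).

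Genes of the blood-brain barrier lay on both sides of Vehicle. Of 20 members, 13 lay above Vehicle and 7 below, with a median log2 fold change of 0.17, and 8 were higher and 3 lower at an unadjusted p under 0.05. Among all genes tested, 3.36% were higher and 2.82% lower at that threshold. The barrier members higher at that threshold were 3 without Vehicle replicate 2 and 5 without Vehicle replicate 3. Cldn5, the main claudin of the brain's tight junctions, measured 73.2, 93.5 and 75.9 CPM in the aCD40 tumours, 60.9, 54.1 and 74.9 CPM in the D2C7-IT tumours, 74.4, 77.6 and 76.4 CPM in the D2C7-IT+aCD40 tumours, and 46.6, 36.1 and 35.9 CPM in Vehicle. The groups did not overlap, at a log2 fold change of 0.83 ± 0.13 (edgeR adjusted p = 0.13). Lsr, a tricellular junction protein, was 0.86 ± 0.15 and also without overlap. Slc2a1, the glucose transporter of the barrier, stood at 0.32 ± 0.07 with 8 of 9 treated libraries above Vehicle.

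Slc22a8, an organic anion transporter of the barrier, ran from 8.84 to 17.7 CPM in the treated libraries, with a median of 10.9 CPM, against 17.5, 24.5 and 18.5 CPM in Vehicle, so that 8 of 9 lay below (log2 -0.82 ± 0.20, edgeR adjusted p = 0.44). Mfsd2a, the lipid transporter that restrains transcytosis, was -0.36 ± 0.12, and Itm2a was -0.36 ± 0.12. Gkn3, a marker of brain arteries in the mouse, ran from 0.402 to 1.94 CPM, with a median of 0.829 CPM, against 1.5, 2.07 and 2.27 CPM in Vehicle (log2 -1.36 ± 0.28, edgeR adjusted p = 0.31). Hey1, a Notch target active in arteries, lay below Vehicle in all 9 treated libraries at log2 -0.44 ± 0.14, while the vein marker Slc38a5 lay above in all 9 at 0.91 ± 0.25. Over the whole artery and vein list of 16 genes, 11 were higher and 5 lower, with a median of 0.18.

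Genes of mural cells, which wrap the endothelium, stood near their Vehicle level. The 17 pericyte and smooth muscle genes had a median log2 fold change of 0.04, with 0 higher and 2 lower at an unadjusted p under 0.05 and 0 without overlap. At that p, 3.36% of all genes tested were higher and 2.82% lower. The 2 lower members became 0 without Vehicle replicate 2 or 3, and 2 were higher without Vehicle replicate 1. Their summed level was 284 to 391 CPM in the treated libraries, with a median of 354 CPM, against 294 to 352 CPM in Vehicle. The pericyte markers Pdgfrb, Rgs5, Kcnj8 and Abcc9 were at 0.15 ± 0.09, -0.11 ± 0.08, 0.21 ± 0.12 and 0.15 ± 0.16, and the smooth muscle genes Acta2 and Myh11 were at -0.47 ± 0.18 and -0.54 ± 0.23. A difference between this list and the endothelial list was not tested. The 12 genes of the basement membrane that both cell types share had a median of 0.20, with 10 above and 2 below Vehicle, and 2 had an unadjusted p under 0.05, against 7 without Vehicle replicate 1.

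Genes of growing vessels gave a mixed picture. The tip cell and angiogenic list had 15 of 18 members above Vehicle, with a median of 0.23 and 4 with an unadjusted p under 0.05. Over all genes tested, 3.36% were higher and 2.82% lower at that p. Angpt2, the destabilising ligand of the receptor Tek, ran from 1.98 to 4.52 CPM in the treated libraries, with a median of 3.18 CPM, against 1.69, 1.45 and 1.17 CPM in Vehicle (log2 1.10 ± 0.21, edgeR adjusted p = 0.27). The receptors Tek, Tie1, Flt4 and Kdr stood at 0.44, 0.52, 0.57 and 0.33. Vegfa, the main vessel growth factor and a hypoxia target, lay lower, at 51.8 to 79.4 CPM, with a median of 64.9 CPM, in treated libraries, against 90.1, 74.5 and 83.7 CPM in Vehicle (log2 -0.42 ± 0.10, edgeR adjusted p = 0.44). The tip cell genes Apln and Esm1 were at -0.50 ± 0.27 and 0.26 ± 0.60.

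Of 14 shear stress and nitric oxide genes, 8 lay above Vehicle and 6 below, at a median of 0.11, with 4 higher and 2 lower at an unadjusted p under 0.05. The median was -0.07 without Vehicle replicate 3, and 2 were higher at that threshold without Vehicle replicate 2. Of 15 sphingolipid genes, 12 lay above Vehicle, at a median of 0.12, with 2 higher and 1 lower at that threshold. Over all genes tested, 3.36% were higher and 2.82% lower at it. Klf4, a transcription factor induced by shear stress, ran from 6.86 to 14.6 CPM in the treated libraries, with a median of 9.57 CPM, against 14.7, 13.3 and 13.4 CPM in Vehicle (log2 -0.53 ± 0.13, edgeR adjusted p = 0.47). The sphingosine-1-phosphate receptor S1pr1 was at -0.34 ± 0.09, with 8 of 9 treated libraries below Vehicle. Acer2, which makes sphingosine from ceramide, lay above Vehicle in every treated library. It measured 17.5, 21.8 and 20.5 CPM in the aCD40 tumours, 17, 18.7 and 18.1 CPM in the D2C7-IT tumours, 16.7, 16.5 and 18.6 CPM in the D2C7-IT+aCD40 tumours, and 11.1, 11.6 and 7.29 CPM in Vehicle (log2 0.83 ± 0.12, edgeR adjusted p = 0.12). The 9 treated libraries lay above the 3 Vehicle libraries, and the aCD40 group held the highest value.

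Genes that endothelium switches on under inflammation also lay above Vehicle, with a wider spread between treatments. Of 18 members of the endothelial activation list, 17 lay above Vehicle, 12 with an unadjusted p under 0.05 and 3 without overlap, and the median log2 fold change was 1.15. The median was 0.74 in aCD40, 1.52 in D2C7-IT and 0.80 in D2C7-IT+aCD40, where the pan-endothelial medians were 0.52, 0.33 and 0.46. The summed levels overlapped, at 250 to 829 CPM in the treated libraries, with a median of 602 CPM, against 210 to 319 CPM in Vehicle. Among all genes tested, 3.36% were higher at an unadjusted p under 0.05 and 0.979% lay above Vehicle without overlap. The count of list members at that p was 6 without Vehicle replicate 3. Several of these genes, such as Icam1, Socs3 and Tnfaip3, are also induced in immune and glial cells.

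Selp, P-selectin, which rolls leukocytes along venules, had 2.05, 1.95 and 1.54 CPM in the aCD40 tumours, 18.4, 16.3 and 8.43 CPM in the D2C7-IT tumours, 2.03, 6.9 and 2.11 CPM in the D2C7-IT+aCD40 tumours, and 0.393, 0.189 and 0 CPM in Vehicle. The 9 treated libraries lay above Vehicle and the D2C7-IT libraries lay above all others. The log2 fold change was 4.39 ± 0.73, with a 95% interval of 2.77 to 6.00 and an edgeR adjusted p of 0.16. Sele, E-selectin, ran from 0.251 to 9.65 CPM, with a median of 2.02 CPM, in treated libraries, against 0.277, 0 and 0.081 CPM in Vehicle (log2 3.99 ± 0.84). Icam1, the integrin ligand that arrests leukocytes, ran from 11 to 153 CPM with a median of 30.6 CPM, against 14.1, 7.38 and 3.4 CPM in Vehicle, and 6 of the 9 lay above Vehicle. Procr, the endothelial protein C receptor, lay above Vehicle in all 9 at 1.23 ± 0.29, whereas Thbd, thrombomodulin, stood at -0.11 ± 0.21 and F3, tissue factor, at 0.02 ± 0.11.

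Red cell transcripts lay below their Vehicle level at day 0. Of the 7 members tested, 0 were above Vehicle and 5 had an unadjusted p under 0.05, with a median log2 fold change of -1.38. Among all genes tested, 2.82% were lower at that p. DESeq2 called 3 of the 7 lower, where it called 0.132% of all genes lower. Hba-a1, an alpha globin (chromosome 11, 32283511 to 32284465), measured 3.3, 2.83 and 4.21 CPM in the aCD40 tumours, 7.22, 12.4 and 9.49 CPM in the D2C7-IT tumours, 3.77, 5.65 and 6.1 CPM in the D2C7-IT+aCD40 tumours, and 7.46, 11.8 and 30 CPM in Vehicle. The D2C7-IT range overlapped Vehicle, and the other 6 libraries lay below it. The log2 fold change was -1.65 ± 0.35, with an edgeR adjusted p of 0.35, and over the 12 fits that leave out 1 library it ran from -1.99 to -0.81. Without Vehicle replicate 3, the median of the list was -0.50 and 2 members had an unadjusted p under 0.05.

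The beta globins Hbb-bs and Hbb-bt stood at -1.38 ± 0.38 and -1.59 ± 0.40, and Alas2, the first enzyme of heme synthesis in red cells, at -0.95 ± 0.34. The globin genes have near-identical copies, so reads could be split between them. Bpgm, an enzyme of red cell glycolysis that other tissues also express, was at -0.07 ± 0.12. The 7 platelet genes tested had a median of 0.07, with 0 higher and 1 lower at an unadjusted p under 0.05, and summed to 14.3 to 26.7 CPM in the treated libraries, against 13.1 to 22.6 CPM in Vehicle. The sums overlapped between the groups, and 2.82% of all genes tested were lower at that p. Platelets also carry von Willebrand factor, and their part in the Vwf value was not tested.

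Genes of inflammation outside the vessel wall mostly lay above Vehicle, with wide spread. All 12 neutrophil genes tested had a log2 fold change above 0, 6 with an unadjusted p under 0.05 and 2 without overlap, at a median of 1.46. The count of 6 was 4 without Vehicle replicate 3, and 3.36% of all genes tested were higher at that p. The list summed to 33.1 to 133 CPM in aCD40, 249 to 343 CPM in D2C7-IT and 36.9 to 144 CPM in D2C7-IT+aCD40. In Vehicle it summed to 14.8 to 67.6 CPM, so only the D2C7-IT sums all lay above Vehicle. S100a8, a calcium-binding protein of neutrophils, measured 0.717, 1.29 and 1.18 CPM in the aCD40 tumours, 2.37, 2.17 and 1.47 CPM in the D2C7-IT tumours, 0.481, 1.87 and 0.426 CPM in the D2C7-IT+aCD40 tumours, and 0.0462, 0.215 and 0.162 CPM in Vehicle. Its partner S100a9 ran from 0.56 to 2.93 CPM, with a median of 1.16 CPM, against 0.139, 0.35 and 0.324 CPM in Vehicle. Both were without overlap, at log2 fold changes of 3.10 ± 0.63 (edgeR adjusted p = 0.31) and 2.27 ± 0.43 (edgeR adjusted p = 0.25).

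Of the 22 interferon gamma targets, 21 lay above Vehicle, 11 with an unadjusted p under 0.05, and the median log2 fold change was 1.17. Their summed levels overlapped, at 444 to 2201 CPM in the treated libraries against 158 to 640 CPM in Vehicle. All 21 type I interferon targets lay above Vehicle, 11 with an unadjusted p under 0.05, at a median of 1.03. Among all genes tested, 3.36% were higher at that p and 0.979% lay above Vehicle without overlap. The guanylate-binding protein Gbp5 was the interferon gamma target without overlap, at 20.7 to 158 CPM, with a median of 79.6 CPM, in treated libraries, against 20.7, 14.1 and 4.49 CPM in Vehicle (log2 2.36 ± 0.66, edgeR adjusted p = 0.65). The lowest treated and the highest Vehicle value of Gbp5 print alike at this rounding. The interferon gamma count of 11 was 17 without Vehicle replicate 1, 5 without Vehicle replicate 2 and 2 without Vehicle replicate 3. The type I count of 11 was 5 without Vehicle replicate 2 and 1 without Vehicle replicate 3. It was 4 to 7 without any D2C7-IT library, combination replicate 2 or 3 or aCD40 replicate 3.

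Acute-phase genes, normally made by liver but also by glia and endothelium, lay above Vehicle for 14 of 14 tested, at a median of 1.66, and 8 had an unadjusted p under 0.05, against 3 without Vehicle replicate 2 and 4 without Vehicle replicate 3. The medians were 1.20 in aCD40, 2.85 in D2C7-IT and 1.21 in D2C7-IT+aCD40. Itih4 ran from 0.497 to 3.88 CPM, with a median of 0.874 CPM, in treated libraries, against 0.139, 0.242 and 0.121 CPM in Vehicle (log2 2.65 ± 0.57, edgeR adjusted p = 0.35). Cp, ceruloplasmin, ran from 26.4 to 291 CPM with a median of 70.9 CPM, against 38.5, 25.5 and 15.3 CPM in Vehicle. Of the NF-kB and CD40 targets, 19 of 20 lay above Vehicle at a median of 0.97, and 14 of 15 complement genes did so at a median of 0.51. The NF-kB and CD40 medians were 0.39 in aCD40, 1.68 in D2C7-IT and 0.75 in D2C7-IT+aCD40, with 0 members without overlap. Of these members 10 had an unadjusted p under 0.05, against 3 without Vehicle replicate 2 and 2 without Vehicle replicate 3. Between treated groups 11 had an unadjusted p under 0.05, while 5.33% of all genes tested did so. For complement the pooled count was 6, against 2 without Vehicle replicate 3. At that p, 3.36% of all genes tested were higher in the pooled contrast. Cd40 itself was at 2.04 ± 0.59, with 8 of 9 treated libraries above Vehicle.

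Chemokines and cytokines included genes that were higher in every treated library. Ccl22, a chemokine of activated dendritic cells, measured 6.81, 4.78 and 16.2 CPM in the aCD40 tumours, 1.13, 1.99 and 2.93 CPM in the D2C7-IT tumours, 4.08, 7.07 and 7.62 CPM in the D2C7-IT+aCD40 tumours, and 0.901, 0.485 and 0.486 CPM in Vehicle. Here the D2C7-IT libraries were the lowest of the treated ones (log2 2.89 ± 0.48 over all 3 treatments, edgeR adjusted p = 0.16). Il12b, a subunit of interleukin 12 and interleukin 23, ran from 0.282 to 7.88 CPM with a median of 3.03 CPM, against 0.162, 0.269 and 0 CPM in Vehicle (log2 4.13 ± 1.00, edgeR adjusted p = 0.47). Adgre4, a macrophage receptor of the adhesion class that was chosen after its values were seen, ran from 0.409 to 1.23 CPM, with a median of 0.962 CPM, against 0.0693, 0.0539 and 0.121 CPM in Vehicle (log2 3.41 ± 0.43, edgeR adjusted p = 0.052).

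**Figure D3:**
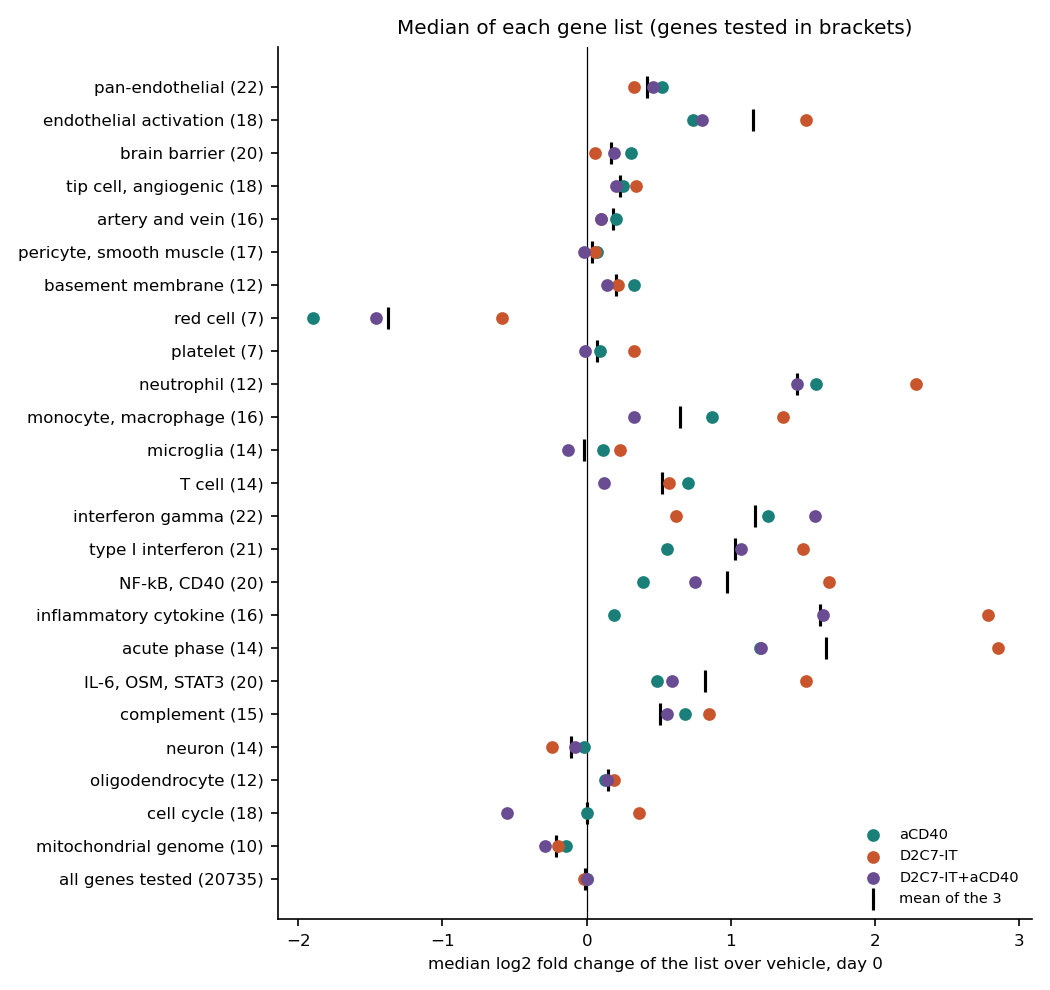
Median log2 fold change over Vehicle at day 0 of 24 gene lists and of all genes tested, for each treated group (coloured points) and for their mean (black bars). The pan-endothelial medians lie close together at 0.52, 0.33 and 0.46, the inflammatory lists spread widely with D2C7-IT usually at the right, and the red cell medians lie left of 0 in all 3 groups.

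Markers of other cell types had medians on both sides of the pan-endothelial one. Above it stood choroid plexus and ependymal genes at 0.60 (8 of 10 higher), T cell genes at 0.52 (10 of 14), monocyte and macrophage genes at 0.65 (14 of 16) and natural killer genes at 0.92 (10 of 10). Of these 4 lists, the monocyte and macrophage list alone had members at an unadjusted p under 0.05, 4 of them. Among all genes tested, 3.36% were higher at that p. Choroid plexus and ependymal genes summed to 27.1 to 979 CPM in the treated libraries, against 51.1 to 544 CPM in Vehicle. Nearer to 0, the medians were -0.02 for microglia, -0.11 for neurons, 0.08 for astrocytes, 0.15 for oligodendrocytes and 0.00 for cell cycle genes, with 0 members of these 5 lists at an unadjusted p under 0.05 in either direction. The microglia markers summed to 1701 to 3535 CPM in the treated libraries, against 1972 to 2755 CPM in Vehicle, and the oligodendrocyte markers to 1945 to 7735 CPM, against 2844 to 5491 CPM in Vehicle. The 10 genes of the mitochondrial genome all lay below Vehicle at a median of -0.21, with 0 at an unadjusted p under 0.05. The part that differences in sampled tissue play in the vessel values was not tested.

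Genes that lay below Vehicle without overlap numbered 64 (0.309%). Ppp1r3c, a glycogen-targeting subunit of protein phosphatase 1 that is abundant in astrocytes, measured 35.7, 34.7 and 36.3 CPM in the aCD40 tumours, 35.6, 28.9 and 28.6 CPM in the D2C7-IT tumours, 29.8, 27.4 and 31.3 CPM in the D2C7-IT+aCD40 tumours, and 41.9, 45.6 and 44.3 CPM in Vehicle. All 9 lay below Vehicle at log2 -0.52 ± 0.08 (0.70-fold, edgeR adjusted p = 0.12). Trib2, a pseudokinase, ran from 35.3 to 50.3 CPM, with a median of 44.2 CPM, against 57.4, 56.6 and 58.8 CPM in Vehicle (log2 -0.43 ± 0.10). Ltbp4, a matrix protein that binds latent TGF-beta, was at -0.49 ± 0.12, and Tepsin, an adaptor of vesicle coats, at -0.29 ± 0.07. Rn7sk, a small nuclear RNA of transcription control, was at -1.34 ± 0.31, at low means of 0.814 CPM in the treated libraries and 1.97 CPM in Vehicle.

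Whether the 3 treatments gave the same level was tested in the same day 0 fit, by a contrast that holds no Vehicle library. The Vehicle libraries still entered the filter, the scaling and the estimate of spread. At an adjusted p under 0.05, 0 of 20735 genes differed between the treated groups (edgeR), while 1105 (5.33%) had an unadjusted p under 0.05, DESeq2 called 198 and limma voom called 14. The edgeR count was 63 without combination replicate 2. The lowest adjusted p was 0.066, for the stromelysin Mmp3, which had 7.43, 9.89 and 3.18 CPM in the D2C7-IT tumours, 0.43, 0.679 and 0.359 CPM in the D2C7-IT+aCD40 tumours, and 0.0768, 0.0314 and 0.0947 CPM in the aCD40 tumours. Among the 100 genes of smallest p in the pooled contrast, 32 had an unadjusted p under 0.05 between treated groups. Of the 74 higher ones, 48 (64.9%) had their largest fold change in D2C7-IT, 23 (31.1%) in aCD40 and 3 (4.05%) in D2C7-IT+aCD40. Of all higher genes, 42.4% had it in D2C7-IT, 24.4% in aCD40 and 33.1% in D2C7-IT+aCD40.

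For Vwf the interval of each difference between 2 treatments was as follows: the log2 difference was 0.16 for D2C7-IT over aCD40 (95% interval -0.23 to 0.56) and -0.32 for D2C7-IT+aCD40 over aCD40 (-0.72 to 0.07). For Pecam1 these were -0.23 (-0.50 to 0.04) and -0.13 (-0.40 to 0.14). For Lrg1 they were 1.23 (0.82 to 1.63) and 0.08 (-0.32 to 0.49), with an edgeR adjusted p of 0.12 for any difference between the 3 treatments. For Angptl4, a secreted lipase inhibitor induced by hypoxia and glucocorticoids, D2C7-IT over aCD40 was 2.17 (1.37 to 2.96). Angptl4 had 6.61, 7.54 and 5.28 CPM in the aCD40 tumours, 31.2, 34.9 and 23.3 CPM in the D2C7-IT tumours, 5.67, 12.9 and 5.45 CPM in the D2C7-IT+aCD40 tumours, and 1.78, 3.15 and 2.47 CPM in Vehicle, so the treated libraries lay above Vehicle in every group (log2 2.17 ± 0.33, edgeR adjusted p = 0.12).

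**Figure D4:**
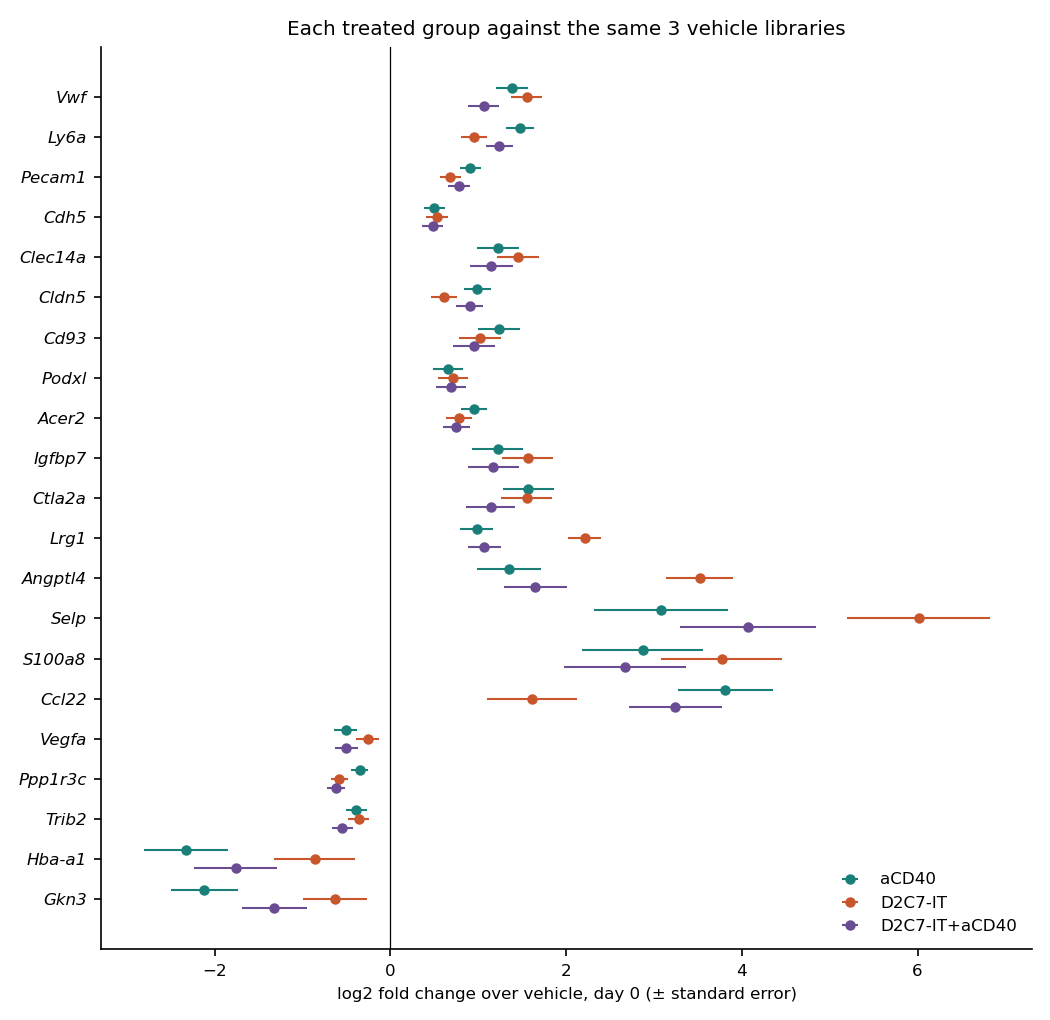
Log2 fold change over Vehicle at day 0, with standard errors, of 21 genes in each treated group; the 3 groups share the same 3 Vehicle libraries. Cdh5, Podxl and Acer2 stand at nearly the same place in all 3 groups, Lrg1, Angptl4 and Selp stand furthest right in D2C7-IT, and Ccl22 stands further left in D2C7-IT, at 1.61, than in aCD40, at 3.81.

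Taken singly against the same Vehicle libraries, the treatments gave few calls: 1 gene for aCD40 (0.00482%), 10 for D2C7-IT (0.0482%) and 0 for D2C7-IT+aCD40, with 579 (2.79%), 1845 (8.9%) and 1185 (5.71%) genes at an unadjusted p under 0.05 (edgeR). For the combination, DESeq2 called 44. The log2 fold changes of Vwf were 1.38, 1.55 and 1.06 in aCD40, D2C7-IT and D2C7-IT+aCD40, those of Ly6a were 1.47, 0.95 and 1.24, and those of Clec14a were 1.22, 1.45 and 1.15. The 3 comparisons share their 3 Vehicle libraries.

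The same contrast was measured in the 12 tumours taken 3 days later, which the day 0 values did not use. Of these libraries, Vehicle replicates 2 and 3 and aCD40 replicate 1 held 289 to 357 CPM of Egfr. The other 21 libraries of the series held 12.9 to 49.6 CPM. Log2 fold changes of vessel genes and lists at day 3 are given with and without these 3 libraries. CPM ranges, overlap counts and the values of single globin genes are given with all 12 libraries. Without the 3 libraries, Vehicle is a single library. At day 3, 0 of 21589 genes passed in edgeR and 66 in DESeq2. The unadjusted p was under 0.05 for 2535 genes (11.7%). The edgeR count was 3 without Vehicle replicate 1 and 1970 without aCD40 replicate 1. Without the 3 libraries, 1143 of 22689 genes (5.04%) had an unadjusted p under 0.05 and 1 passed (0.00441%), the interferon gamma-induced chemokine Cxcl9 (log2 5.18, edgeR adjusted p = 0.041). That fit has 1 Vehicle library, which is assumed to vary like the treated groups, so its p-values carry no measure of the spread in Vehicle.

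Vwf at day 3 ran from 61.8 to 149 CPM in the treated libraries, with a median of 75.9 CPM, against 43.7, 68.5 and 63.2 CPM in Vehicle, and 7 of 9 lay above Vehicle. Its log2 fold change was 0.54 ± 0.22 with all 12 libraries and 0.98 ± 0.35 without the 3. Pecam1 was at 0.34 ± 0.15 and 0.65 ± 0.19 in the same order, and Lrg1 at -0.12 ± 0.44 and 1.16 ± 0.68. Of the 22 pan-endothelial genes, 16 lay above Vehicle at a median of 0.10, and without the 3 libraries 21 lay above at a median of 0.36, against a median of 0.05 over all genes in that fit. The endothelial activation list had a median of -0.15 with all 12 and 1.14 without the 3, so its direction turned with those libraries. Acer2 was at 1.36 ± 0.28 and 1.01 ± 0.27, with 8 of 9 treated libraries above Vehicle.

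Red cell genes stood on the other side of Vehicle at day 3. The median log2 fold change of their list was 2.12 with all day 3 libraries and 2.67 without the 3 of high Egfr. Hba-a1 ran from 11.3 to 47.9 CPM in the treated libraries, with a median of 25.8 CPM, against 3.52, 8.08 and 5.64 CPM in Vehicle, with no overlap (log2 2.13 ± 0.41). The day 0 value minus the day 3 value was -3.79 ± 0.57, with an edgeR adjusted p of 0.057, the lowest among 22280 genes, of which 0 passed and 1996 (8.96%) had an unadjusted p under 0.05; DESeq2 called 8. For Hba-a2, Hbb-bs and Hbb-bt the differences were -3.64 ± 0.58, -3.38 ± 0.63 and -3.87 ± 0.66. Of the vessel genes, Clec14a differed by 1.53 ± 0.36 and Cldn5 by 0.72 ± 0.19 between days, each with an edgeR adjusted p of 0.49, and without the 3 libraries by 0.68 and 0.68. Of the 203 genes without overlap at day 0, 200 were tested at day 3 and 4 (2%) were again above Vehicle in all 9 libraries: Erg, Ier3, S100a9 and Gm42890. These were 5.97% of the 67 genes without overlap at day 3, and 0.31% of all genes tested at day 3 had none. Of the 64 lower genes, 0 of the 61 tested were again below Vehicle in all 9. Only 0.157% of all genes tested at day 3 were so, a share too small for 61 genes to show a difference.

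**Figure D5:**
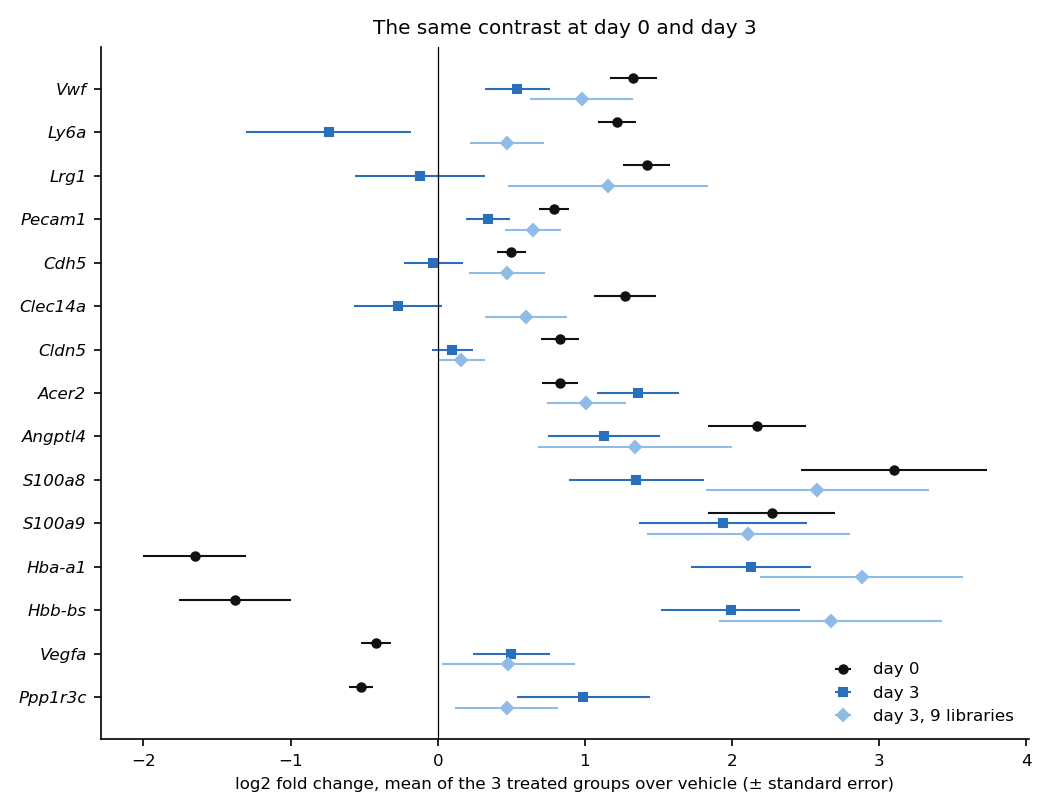
Log2 fold change of the 3 treated groups over Vehicle, with standard errors, for 15 genes at day 0 (circles), at day 3 with all 12 libraries (squares) and at day 3 without the 3 libraries high in Egfr (diamonds). Vwf, Pecam1, Acer2, Angptl4, S100a8 and S100a9 lie right of 0 in all 3 fits, and the globins Hba-a1 and Hbb-bs lie left of 0 at day 0 and right of 0 at day 3.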

How the data were processed

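Whole brain tumours, each a separate tumour by its label, were sequenced as polyadenylated RNA. The authors deposited whole-number counts per gene, not normalized, for 49315 genes in 6 tables. The 36 columns hold 24 libraries, and the 12 repeated columns are identical. Per the submitters' processing notes the genome was GRCm38, and the tools named are STAR 2.5.2b, Trimmomatic 0.36, bcl2fastq 2.17 and Subread 1.5.2 with its featureCounts. Neither annotation release nor strand setting is stated in these sources. Without strand, antisense and overlapping genes cannot be told apart, and near-identical copies (globins, Ly6, Gbp and H2 genes) are uncertain.

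From the counts, genes passing filterByExpr were scaled by TMM and tested with edgeR 4.0.16 (R 4.3.3), with robust quasi-likelihood on the 12 day 0 libraries, 8 residual degrees of freedom and Benjamini-Hochberg adjustment over all genes tested. CPM are counts per 1000000 reads counted to genes. Alternatives were DESeq2 1.42.0, limma 3.58.1 voom, other scaling, no filter, a fit of all 24 libraries, a replicate block and leaving out each library. Replicates were compared by chi-square, and the lowest value per degree of freedom was 31.21, so none was a repeat. In simulated data the edgeR fit called 57% of genes changed by a log2 of 1 and 85% of those changed by 2, with 6 false among 148 calls. The simulation changed 100 genes by each size, all of 1 CPM or more, and equally in the 3 treated groups. Changes that differ between treatments were not simulated, so these shares do not hold for such genes. The members and lists were chosen with earlier results of these data known. Since fewer than 10 genes were called, ranked genes came from the 100 of smallest p, if expressed at 1 CPM or more. These were up to 14 higher and 10 lower without overlap, ranked by the smallest change over the 3 treatments. Up to 4 in each direction of largest change and up to 4 of smallest p between treated groups were added. Without those limits, up to 4 members of smallest p in vessel and blood lists, 2 in other lists, and Egfr, Cd40 and Eef2 were named. Other genes, list members included, were chosen after their values were seen. The value of 1 list member is not reported here.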

Additional observations from a re-analysis of the deposited data

How the results depend on the processing

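For the pooled contrast, which gave 3 calls, edgeR gave 0 with the 9 treated libraries as 1 group, 0 in the fit of all 24, 1 without scaling and 0 to 5 when 1 library was left out; DESeq2 gave 124. Between treated groups the edgeR count of 0 became 1 in the fit of all 24, 1 without a filter and 0 to 63 with 1 library left out, against 198 in DESeq2 and 14 in voom. For aCD40 the count of 1 became 0 in the fit of all 24, 0 without scaling, 4 in voom, 40 in DESeq2 and 0 to 1 with 1 library left out. For D2C7-IT the count of 10 became 18 in the fit of all 24, 44 in voom, 352 in DESeq2 and 0 to 115 with 1 library left out. For the combination DESeq2 gave 44, and leaving out a library gave 0 throughout. At day 3 DESeq2 gave 66, the fit without the 3 libraries high in Egfr gave 1, and leaving out 1 library gave 0 to 1970. For the difference between days DESeq2 gave 8, no filter gave 1, and leaving out 1 library gave 0 to 1674. The cause was not tested. Replicate numbers did not pair the samples: of 18 same-number pairs 4 had a correlation over 0.1 (median -0.13), and 3 of 12 libraries correlated best with their own number. With the replicate block the counts were 0 for the pooled contrast, 0 between treated groups, 0 for aCD40, 4 for D2C7-IT and 3 for the difference between days. With 1 library left out, the log2 fold change ran from -1.11 to 0.82 for Foxm1, from -4.94 to 0.17 for Hmga2 and from -0.44 to 0.56 for Egfr, and all 3 were above 0 only without Vehicle replicate 1. Over the named genes, 2745 values kept direction and side of the threshold, 72 gained a call, 40 lost one and 3 reversed. The number of list medians above 0 was 36, and 32 to 37 with 1 library left out.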

Other observations

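Lists of other immune and stress genes were measured in the same contrast. Natural killer and cytotoxic genes lay above Vehicle for 10 of 10 tested (median log2 fold change 0.92) and MHC class II genes for 9 of 9 (median 0.66), with 0 at an unadjusted p under 0.05 in either list. Matrix proteases and related genes lay above Vehicle for 14 of 15, at a median of 0.79, and 5 had an unadjusted p under 0.05. Over all genes tested, 3.36% were higher at that p. Inflammatory cytokines lay above Vehicle for 14 of 16, with medians of 0.19 in aCD40, 2.78 in D2C7-IT and 1.64 in D2C7-IT+aCD40, and 10 of the 16 had an unadjusted p under 0.05 between the treated groups. Of these cytokines 9 had an unadjusted p under 0.05 in the pooled contrast, against 5 without Vehicle replicate 2 or 3. Between the treated groups, 5.33% of all genes tested had an unadjusted p under 0.05.

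Perivascular and alternatively activated macrophage genes had medians of 0.03 in aCD40, 0.35 in D2C7-IT and -1.07 in D2C7-IT+aCD40. Between the treated groups, 7 of the 11 tested had an unadjusted p under 0.05, while 5.33% of all genes did so. Hypoxia genes and glucocorticoid targets had pooled medians of -0.04 and -0.06, with members on both sides of Vehicle. Monocyte and macrophage genes had a median of 0.65, and 4 of 16 had an unadjusted p under 0.05, against 12 without Vehicle replicate 1, 0 without Vehicle replicate 2 and 2 without Vehicle replicate 3. The median itself was 1.87 without Vehicle replicate 1, 0.26 without Vehicle replicate 3 and 0.40 without aCD40 replicate 3.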
